A study of Mus musculus with 12 samples.

Results

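The mitochondrial respiratory chain passes electrons from NADH and succinate to oxygen through complexes I to IV, and complex V, the ATP synthase, uses the proton gradient that 3 of them build. Most of its subunits are encoded in the nucleus and imported, while a small core is made inside the mitochondrion. The genes described here are the nuclear-encoded subunit genes. They were chosen by symbol, as the rows named Ndufa, Ndufb, Ndufc, Ndufs or Ndufv and a number, Sdha to Sdhd, Uqcr, Cox5 to Cox8 with a letter, or Atp5. The choice gave 83 of the 21965 rows of the count table. Complex I held 37, complex II 4, complex III 8, complex IV 16 and complex V 18. They stand for 82 symbols, because Atp5o is listed under 2 identifiers. Cox4i1, Cox4i2, Cyc1, Cycs and Ndufab1 fall outside the naming rule and are given separately, and 0 rows of the table lie on the mitochondrial chromosome.

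RNA was sequenced from gingiva, the gum tissue around the teeth, of WT mice (C57BL/6 in the labels, C57BL/6J in the methods of the study) and of mice labelled Cybb-/- (CybbKO, which carry a disrupted gene for the Nox2 catalytic subunit of the phagocyte NADPH oxidase). In each genotype, 3 libraries came from naive gingiva and 3 from gingiva taken 8 days after a silk ligature was tied around a maxillary molar, which gives 4 groups of 3. All mice were under 12 weeks old per the labels, both sexes were used per the methods of the study, and nothing used here says whether a library pools animals. P-values measure the spread between these libraries. Cybb did not follow the label. It was at 5.60, 5.38 and 4.19 CPM (counts scaled to a common library size) in naive WT and 41.6, 56.3 and 45.9 in naive CybbKO libraries, and at 8.41, 15.2 and 12.8 in ligated WT and 56.1, 51.1 and 63.7 in ligated CybbKO libraries. No WT library reached the lowest of the CybbKO libraries. Directions by genotype below rest on the labels. A transcript that is still made from a disrupted gene is counted like any other, so the counts do not show whether the protein was lost.

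The libraries held 27958819 to 42613423 counts. Epithelial keratin and desmosome genes summed to 74450 to 144550 CPM across the libraries, so gingival epithelium was present in each. Other tissue was sampled unevenly. The 31 skeletal muscle marker genes summed to 1197 to 6238 CPM, a range of 5.21-fold. The lowest was ligated WT replicate 2 and the highest naive CybbKO replicate 3. Salivary gland markers reached 29179 CPM in naive WT replicate 3 against 56.3 in naive WT replicate 1. Ligated CybbKO replicate 2 stood apart from the other ligated CybbKO libraries, with 4458 CPM of fibroblast markers against 12043 and 11113. Its neutrophil markers summed to 2491 CPM against 4424 and 11643, and its muscle markers to 5688 CPM against 2295 and 2032. In whole tissue, fewer cells of a type and less RNA per cell cannot be told apart.

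Some complex IV subunits come as a striated muscle form and a form used in most tissues. The muscle forms are Cox6a2, Cox7a1 and Cox8b, and their widespread counterparts are Cox6a1, Cox7a2 and Cox8a. The promoters are shown because the results separate the muscle genes from the rest of the chain. Each is the RefSeq window from 250 bases before to 50 bases after the annotated start on build GRCm38.p6, printed 5′ to 3′ on the gene's strand. Cox7a1 (chr7:30183921-30184220, plus strand) and Cox8b (chr7:140900397-140900696, minus strand) are muscle forms, and Cox6a1 (chr5:115348909-115349208, minus strand) and Cox8a (chr19:7217567-7217866, minus strand) the widespread ones. The window of Cox6a2 was not analysed here. Capitals mark matches to 6 motifs searched on both strands.
Cox7a1: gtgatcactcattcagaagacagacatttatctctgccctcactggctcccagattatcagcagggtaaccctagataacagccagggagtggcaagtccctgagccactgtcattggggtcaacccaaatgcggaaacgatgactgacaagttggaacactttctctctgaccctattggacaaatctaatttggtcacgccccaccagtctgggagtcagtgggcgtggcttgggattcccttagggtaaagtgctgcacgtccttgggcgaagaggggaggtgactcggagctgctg
Cox8b: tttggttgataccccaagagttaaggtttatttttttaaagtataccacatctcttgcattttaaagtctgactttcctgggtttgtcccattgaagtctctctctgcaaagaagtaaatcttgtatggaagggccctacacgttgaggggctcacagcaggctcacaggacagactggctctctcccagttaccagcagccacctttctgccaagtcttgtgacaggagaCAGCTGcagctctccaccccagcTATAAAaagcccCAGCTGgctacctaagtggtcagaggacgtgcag
Cox6a1: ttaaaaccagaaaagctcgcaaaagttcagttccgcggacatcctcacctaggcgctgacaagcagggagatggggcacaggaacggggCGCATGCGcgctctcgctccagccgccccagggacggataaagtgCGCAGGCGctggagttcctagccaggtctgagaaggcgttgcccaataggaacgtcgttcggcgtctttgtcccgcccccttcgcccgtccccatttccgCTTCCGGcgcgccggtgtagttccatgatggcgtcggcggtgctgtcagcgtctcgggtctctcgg
Cox8a: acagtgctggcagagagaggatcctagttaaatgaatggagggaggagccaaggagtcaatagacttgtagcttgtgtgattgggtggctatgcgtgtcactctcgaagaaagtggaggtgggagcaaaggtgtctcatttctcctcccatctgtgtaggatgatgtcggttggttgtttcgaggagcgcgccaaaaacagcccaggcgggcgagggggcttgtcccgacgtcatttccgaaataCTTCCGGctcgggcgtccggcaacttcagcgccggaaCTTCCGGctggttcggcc

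The motifs were the NRF1 core CGCANGCG, the ETS core CCGGAAG, the ERR motif AAGGTCA, the E-box CAGCTG, the TATA box TATAAA and the MEF2 motif. NRF1, ETS factors and ERR are known regulators of mitochondrial genes, while E-boxes and MEF2 motifs are known from muscle genes. The Cox6a1 window held NRF1 and ETS matches and the Cox8a window ETS matches. The Cox8b window held E-boxes and a TATA match. The windows of Cox7a1 and of Cox7a2, its widespread counterpart, held none of the 6. Of the member symbols, 66 matched a window. The NRF1 core was in 23 of them (34.8%) against 10.3% of all 20592 windows of the same length. The ETS core was in 15 (22.7%) against 11.1%, and the ERR motif in 8 (12.1%) against 4.22%. The E-box was in 6 (9.09%) against 15.7%, the TATA box in 7 (10.6%) against 13.2%, and the MEF2 motif in 0 against 1.76%. The E-box and some NRF1 matches read the same on both strands and were counted once per window. These are matches of letters only.

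Of the 83 rows, 80 passed the filter on low counts. The other 3 rows, Cox7b2, Cox8c and the second Atp5o identifier, had a count of 0 in all 12 libraries, so they were not detected. The second Atp5o identifier has 45.85% of its transcript near-identical to another annotated gene, and how reads shared by such genes were counted is not known. Members summed to 7196 to 10160 CPM, or 0.720% to 1.02% of the scaled library size. Levels between genes are compared per transcript length, as FPKM (CPM per kilobase of transcript), means over 12 libraries. Of the 80, 28 were above 100 FPKM and 5 below 10. The median was 57.9 FPKM in complex I, 62.3 in complex II, 100.03 in complex III, 105.2 in complex IV and 144.8 in complex V. The levels of most genes moved little between libraries. The median coefficient of variation of members' CPM over the 12 libraries was 14.04%, against 15.4% for the 8170 genes tested in the CPM range of the middle 80% of members and 20.4% for all 15046 genes tested. Cox7b varied least (8.07%) and Cox8b most (66.5%).

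**Figure D1:**
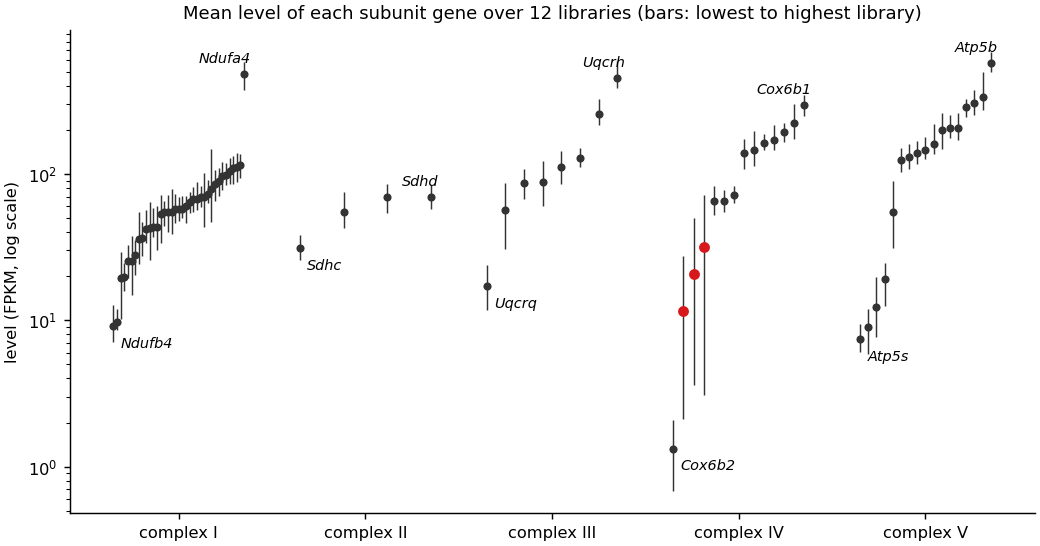
Mean level of each of the 80 tested subunit genes in FPKM on a log axis, ordered within complexes I to V, with bars from the lowest to the highest of 12 libraries. The red points are the muscle isoform genes Cox6a2, Cox7a1 and Cox8b, whose bars are the longest, and Atp5b is the highest gene at 570.3 FPKM.

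Complex I takes electrons from NADH. Its most abundant member by name was Ndufa4 at 484 ± 54.7 FPKM (SD over 12 libraries), a gene first named for complex I whose protein is now known as a complex IV subunit. It was at 335, 279.9 and 274 CPM in naive WT, 273, 228 and 355 in ligated WT, 286, 304 and 326 in naive CybbKO and 296, 281 and 308 in ligated CybbKO libraries. All groups overlapped. The next was Ndufb9, a membrane arm subunit, at 115.2 FPKM, and the lowest was Ndufb4 at 9.12 FPKM. Among its core subunits, those that bind flavin or iron-sulfur clusters ran from Ndufv2 at 67.9 FPKM through Ndufs1 at 60.2, Ndufv1 at 55.3 and Ndufs8 at 36.3 to Ndufs7 at 19.4, and the core subunit Ndufs3 was at 54.6. Ndufa4l2, a hypoxia-inducible relative of Ndufa4, was at 79.4 FPKM with a coefficient of variation of 35.3%. Its highest library was ligated CybbKO replicate 2 at 138 CPM, and the other 11 ran from 44.0 to 102.2 CPM.

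Complex II is succinate dehydrogenase, the enzyme shared with the tricarboxylic acid cycle, and has no subunit made in the mitochondrion. Sdhd, a membrane anchor, was at 70.04 FPKM and the flavoprotein Sdha at 69.9, followed by the iron-sulfur subunit Sdhb at 54.7 and the other anchor, Sdhc, at 31.2. The first pair differed by less than the SD of either (7.89 and 9.24 FPKM). Sdha was at 212, 207 and 185 CPM in naive WT, 204, 157 and 227 in ligated WT, 172, 232 and 248 in naive CybbKO and 182, 219 and 187 in ligated CybbKO libraries. Each group overlapped every other.

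Complex III carries electrons from ubiquinol to cytochrome c. Uqcrh, the hinge protein, was at 455 FPKM and Uqcrb at 257. The core proteins Uqcrc2 and Uqcrc1 were at 128.9 and 112.2 and the Rieske iron-sulfur protein Uqcrfs1 at 86.7. Uqcrfs1 was at 121, 134 and 115 CPM in naive WT, 117, 92.1 and 138 in ligated WT, 110.1, 132 and 146 in naive CybbKO and 103, 109 and 101 in ligated CybbKO libraries. Its ligated CybbKO libraries all lay below its naive CybbKO libraries, the nearest by less than 1 CPM.

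Complex IV, cytochrome c oxidase, was led by Cox6b1 at 295 FPKM and Cox5a at 223. Cox5b was at 65.4. The supercomplex factor Cox7a2l was at 71.7 and Cox7b at 164. Cox5a was at 157, 124 and 137 CPM in naive WT, 133, 112 and 194 in ligated WT, 134, 187 and 166 in naive CybbKO and 133, 129 and 120.1 in ligated CybbKO libraries. Ligated CybbKO lay below naive CybbKO, and ligated WT spanned naive WT. Cox6b2, known from testis, was the lowest member with counts, at 1.33 FPKM.

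Complex V was led by the catalytic beta subunit Atp5b at 570.3 FPKM, followed by the c-ring gene Atp5g3 at 335 and the alpha subunit Atp5a1 at 306. Atp5b alone gave 30.6% of the summed CPM of the complex. It was at 1089, 1170 and 1080 CPM in naive WT, 1084, 951 and 1094 in ligated WT, 1085, 1145 and 1302 in naive CybbKO and 961, 1164 and 988 in ligated CybbKO libraries. The other c-ring genes, whose mature proteins are the same, were far below, Atp5g2 at 12.4 and Atp5g1 at 8.93 FPKM. Atp5g2 shares 88.2% of its transcript with other annotated genes at an identity of at least 97%, so its counts are uncertain. In all, 18 of the 83 rows have such a stretch of at least 75 bases, among them Ndufs3, Atp5h, Uqcrb, Cox7c and Ndufb4.

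The first comparison asked what 8 days of ligature did to the chain in WT gingiva. None of the 80 members passed an adjusted p under 0.05 in edgeR's quasi-likelihood test, against 3.2% of all genes tested (481 of 15046). At an unadjusted p under 0.05 in that test were 0 members, against 2999 of all 15046 genes. DESeq2 also called 0 members. The median log2 fold change of members was -0.04, of all genes -0.03, and 53 of 80 members were below 0 against 53.3% of all genes. By complex the median was -0.05 (I), -0.09 (II), -0.06 (III), 0.02 (IV) and -0.07 (V). Atp5d, the delta subunit of the ATP synthase, had the lowest value at -0.51 ± 0.35 (SE, edgeR adjusted p = 0.447) and Atp5g2 the next at -0.42 ± 0.37 (adjusted p = 0.568). Cox8b had the highest at 0.41 ± 0.78 (adjusted p = 0.816), then Atp5mpl, a small ATP synthase subunit, at 0.21 ± 0.17 (adjusted p = 0.541). No member had ligated libraries wholly above or below the naive ones, whereas 13.3% of all genes lay wholly above and 11.6% wholly below. Scaling by library size alone moved the median of all genes by over 0.1, to 0.08, and that of members to 0.07, so members changed sign with all genes and their distance from them stayed at -0.01. The muscle list summed to 2662 ± 1390 CPM (SD, n = 3) in naive and 3780 ± 2273 in ligated WT libraries, and with muscle content as a covariate the median of members was -0.13 against -0.03 for all genes.

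In CybbKO gingiva the ligature comparison called 13.0% of all genes (1954 of 15046, 1497 higher and 457 lower, or 3.04% lower) and again 0 of 80 members. Their differences lay mostly on one side. Members moved together between libraries, so their signs are not independent in this or the other comparisons. Their mean log2 CPM was 5.98, 5.97 and 6.26 in naive and 5.75, 6.09 and 5.65 in ligated CybbKO libraries, which overlapped. Below 0 were 75 of 80 members, against 53.8% of all genes, and the median was -0.22 against -0.03. It was -0.23 in complex I, -0.14 in II, -0.24 in III, -0.14 in IV and -0.21 in V. By edgeR 3 members had an unadjusted p under 0.05, all lower, while 4172 of all 15046 genes did, and 10.4% of all genes did so with a lower value. Ndufa10, an accessory subunit of complex I, differed by -0.38 ± 0.13 (SE, adjusted p = 0.08995), the flavin-binding subunit Ndufv1 by -0.48 ± 0.20 (adjusted p = 0.141) and Atp5s by -0.36 ± 0.15 (adjusted p = 0.155). Ndufa10 was at 121, 133 and 146 CPM in naive and 94.3, 122 and 92.7 in ligated CybbKO libraries. The high ligated value, from replicate 2, lies just above the lowest naive one.

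In this comparison the other core subunits of complexes I, II, III and V and the complex IV subunits Cox5a and Cox5b had log2 fold changes from -0.61 to -0.05, none past the test. Ndufs7, at -0.61 ± 0.35 (edgeR adjusted p = 0.285), was the lowest of them. Sdhb was at -0.34, Uqcrfs1 at -0.31, Uqcrc1 at -0.30, Atp5a1 at -0.25, Atp5b at -0.18 and Cox5b at -0.05. Over all members the lowest were Cox6a2 at -0.94 ± 0.73 (adjusted p = 0.439) and Cox7a1 at -0.93 ± 0.78 (adjusted p = 0.479), and the highest were Cox6b2 at 0.39 ± 0.39 (adjusted p = 0.549) and Ndufa4l2 at 0.39 ± 0.36 (adjusted p = 0.5197). Ligated libraries lay wholly below naive ones for Cox5a, Cox7c, Ndufb4 and Uqcrfs1, 4 of 80 members or 5.0%, against 12.8% of all genes, and wholly above for 0, against 18.5%.

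The count of called members in CybbKO depended on the fit. DESeq2 called 1 member, Ndufa10 (adjusted p = 0.0445), which was lower, as were 5.06% of all genes it tested. With muscle content as a covariate edgeR called Ndufa10 (adjusted p = 0.0401), against 2.63% of all genes called lower. With an offset for GC content, chosen after seeing the data, it called Ndufa10 (adjusted p = 0.0356) and Ndufv1 (adjusted p = 0.0281), against 7.26% called lower. Without ligated CybbKO replicate 2, the library that stood apart, it called 4, Atp5g1, Ndufa10, Ndufs6 and Ndufv1, all lower in ligated gingiva, against 6.42% called lower. With muscle content as a covariate the median of members was -0.19 against -0.03 for all genes. In the same comparison fibroblast markers went from 1868 ± 261 to 9205 ± 4137 CPM (SD, n = 3), neutrophil markers from 875 ± 53.1 to 6186 ± 4824 and epithelial markers from 124750 ± 20572 to 93429 ± 26914. The part of these in the members' values was not tested.

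**Figure D2:**
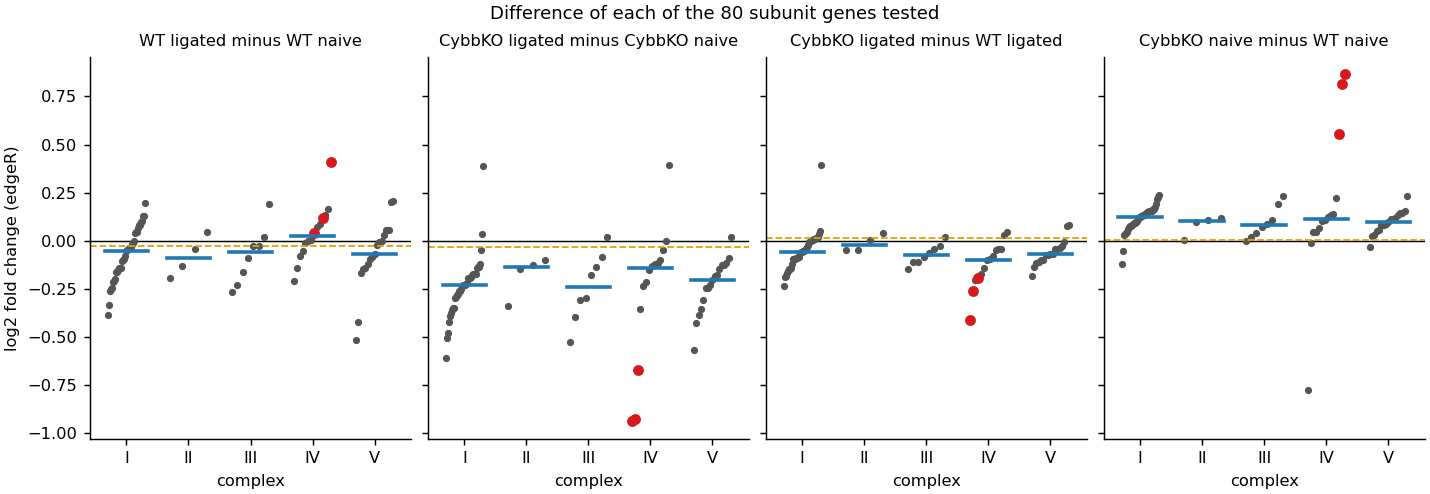
Log2 fold change of each of the 80 tested members by complex in the ligature comparisons (left panels) and the genotype comparisons (right panels), with the median of each complex as a blue bar, the median of all genes tested as a dashed line and Cox6a2, Cox7a1 and Cox8b in red. In ligated against naive CybbKO, 75 of 80 points lie below 0, and 0 of 80 passed the test in any panel.

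Genotype was compared at each state. In ligated gingiva 0 of 80 members were called, against 0.00665% of all genes (1 of 15046, Cybb itself), and 0 had an unadjusted p under 0.05. The median of members was -0.06 and that of all genes 0.01, with 63 of 80 members below 0 against 46.6% of all genes. Cox7a1 was lowest at -0.41 ± 0.78 and Cox8b next at -0.26 ± 0.78 (SE, both with an edgeR adjusted p of 0.9999). Ndufa4l2 was highest at 0.39 ± 0.36 and Atp5d next at 0.08 ± 0.35, with the same adjusted p. No member's CybbKO libraries lay wholly above or below the WT ones, against 5.0% and 2.84% of all genes. Leaving out each library in turn moved the members' median between -0.18 and 0.04, so its sign depended on single libraries.

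In naive gingiva 0 of 80 members were called, against 0.00665% of all genes (again Cybb alone), with 0 members at an unadjusted p under 0.05, and the median of members was 0.11 against 0.00 for all genes. In this comparison 74 of 80 members were above 0, against 50.5% of all genes. The highest were Cox6a2 at 0.86 ± 0.73 and Cox8b at 0.82 ± 0.78, and the lowest Cox6b2 at -0.78 ± 0.39 and Ndufs5 at -0.12 ± 0.17 (SE, each with an edgeR adjusted p of 1). Ndufb9, at 81.5, 77.96 and 83.36 CPM in WT and 83.39, 92.3 and 96.8 in CybbKO, lay wholly higher in CybbKO, 1 of 80 against 2.08% of all genes. Cox6b2 lay wholly lower, 1 of 80 against 3.03%. Muscle markers summed to 1707, 3698 and 6238 CPM in naive CybbKO and 2225, 4218 and 1543 in naive WT libraries, which overlapped. The median of members was 0.05 with muscle content as a covariate and 0.03 without naive CybbKO replicate 3, the library with the most muscle RNA. The difference between the ligature responses of the genotypes (interaction) was called for 0 members and 0.0% of all genes, with 342 genes and 0 members at an unadjusted p under 0.05 by edgeR. Its values were below 0 in 74 of 80 members, against 46.7% of all genes, with a median of -0.17 against 0.02, and with muscle content as a covariate the median of members was -0.08. Leaving out each library in turn moved the members' interaction median, without the covariate, between -0.28 and -0.06. DESeq2 called 0 members in this and in both genotype comparisons. Cox8b (-1.08 ± 1.10) and Cox6a2 (-1.06 ± 1.03) had the lowest interaction values and Cox6b2 (0.60 ± 0.54) and Ndufa4l2 (0.31 ± 0.50) the highest (SE, edgeR adjusted p = 0.99997 for each). The ligature and genotype comparisons share libraries, so their values are not independent.

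**Figure D3:**
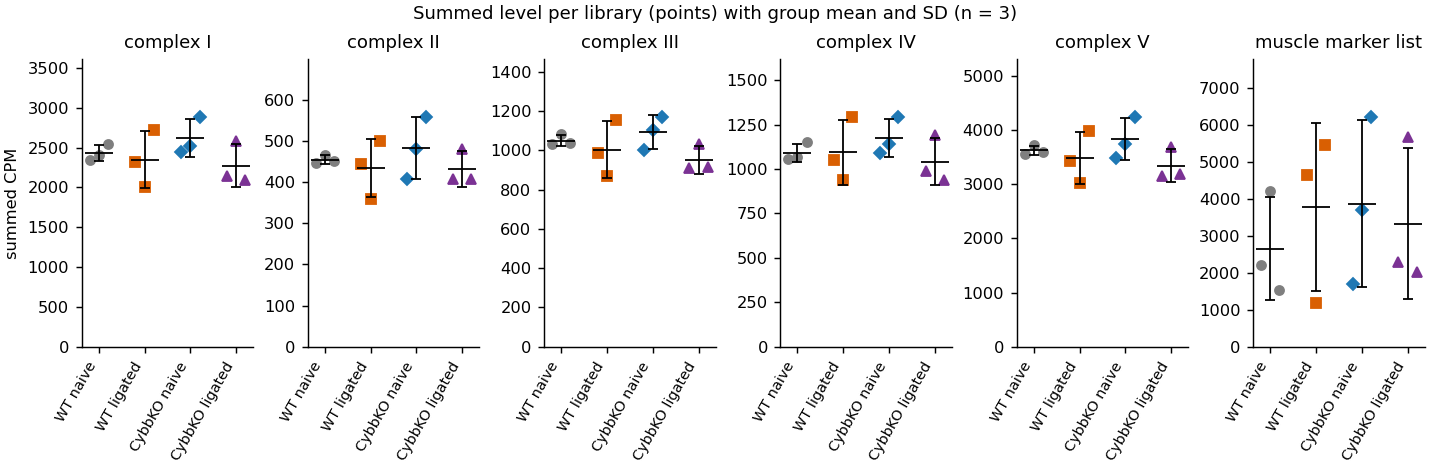
Summed CPM of complexes I to V and of the 31 muscle markers in each of 12 libraries (points, 3 per group), with group mean and SD. In complexes I, II, IV and V every pair of groups overlaps. In ligated WT, ligated CybbKO and naive CybbKO the library with the highest sum is also the one with most muscle RNA. In naive WT this holds for complexes II, III and V. The highest sums of complexes I and IV there are in the library with least muscle RNA.

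The sums by complex moved together between libraries. Complex I summed to 2428 ± 103 CPM (SD, n = 3) in naive WT, 2346 ± 359 in ligated WT, 2616 ± 239 in naive CybbKO and 2272 ± 267 in ligated CybbKO. Complex V summed to 3625 ± 87.5, 3480 ± 476, 3826 ± 388 and 3342 ± 302 in the same order. Complexes II, III and IV spanned 358 to 559, 870 to 1172 and 938 to 1295 CPM. Ligated WT replicate 2 had the lowest sum of all 12 libraries in each complex, and it had the least muscle RNA. Naive CybbKO replicate 3 had the most muscle RNA and the highest sum in complexes I, II, III and V, while in complex IV ligated WT replicate 3 was higher by less than 1 CPM. Naive WT replicate 3 went the other way, with the least muscle RNA of its group (1543 CPM) and the highest complex I (2541 CPM) and complex IV (1151 CPM) sums in it. The members without the muscle isoforms still spanned 7192 to 10095 CPM.

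Muscle content was therefore entered as a slope, log2 change of a gene per doubling of the summed muscle markers, in the same fit over groups. The 31 markers include no member. This comparison was added after seeing the data. It called 3 of 80 members, against 1.33% of genes outside the muscle list (200 of 15015, 199 of them rising). The called members were the muscle isoforms. Cox7a1 rose by 1.28 ± 0.15 per doubling (SE, edgeR adjusted p = 0.000657), Cox8b by 1.24 ± 0.13 (adjusted p = 0.000269) and Cox6a2 by 1.08 ± 0.16 (adjusted p = 0.00445). Without ligated WT replicate 2 Cox6a2 was at 0.94 with an adjusted p of 0.062. The other 77 had slopes from 0.01 to 0.32, none past the test in this fit. The nearest were Ndufa5 at 0.32 ± 0.07 (adjusted p = 0.0752), Sdha at 0.21 ± 0.05 (adjusted p = 0.0911) and Uqcrfs1 at 0.19 ± 0.05 (adjusted p = 0.119). With the GC offset 8 of 80 were called, these 3, the muscle isoforms, Ndufa10 and Ndufs1, against 1.65% of genes outside the muscle list (248 of 15015). All 80 slopes were above 0, with a median of 0.13, against 43.8% and -0.01 for all genes.

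Cox7a1 was at 9.62, 18.3 and 7.14 CPM in naive WT, 14.99, 1.20 and 19.98 in ligated WT, 7.88, 15.7 and 28.1 in naive CybbKO and 5.88, 15.6 and 5.68 in ligated CybbKO libraries. The low and high libraries were those low and high in muscle markers, and the groups overlapped. As a share of Cox7a1 and Cox7a2 together per length, Cox7a1 ran from 1.83% in ligated WT replicate 2 to 24.3% in naive CybbKO replicate 3. Cox8b ran from 2.58% to 24.9% of the pair with Cox8a, and Cox6a2 from 1.56% to 14.7% of the pair with Cox6a1. Mean shares of Cox7a1 by group were 12.7% ± 5.11 in naive WT, 12.6% ± 9.36 in ligated WT, 16.7% ± 7.48 in naive CybbKO and 10.9% ± 4.90 in ligated CybbKO (SD, n = 3). The widespread form Cox7a2 stayed between 108.3 and 146.8 CPM.

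Per 1000 CPM of muscle markers, Cox7a1 ran from 10.8 to 11.8 FPKM in the 6 naive libraries and from 2.56 to 9.28 in the 6 ligated ones, so the states did not overlap. This ratio was added after seeing the data, and the sum it divides by holds markers that rose with ligature. The same measure overlapped for Cox6a2 (2.52 to 6.12 naive, 1.77 to 3.26 ligated) and for Cox8b (4.94 to 7.96 naive, 3.04 to 6.28 ligated). With muscle content as a covariate the ligature difference of Cox7a1 was -0.94 ± 0.31 in WT (SE, edgeR adjusted p = 0.123) and -0.67 ± 0.29 in CybbKO (adjusted p = 0.168), neither past the test. In that fit Cox6a2 was at -0.69 and -0.94 and Cox8b at -0.43 and -0.58, also not past the test. Without the covariate the WT values were 0.04 for Cox7a1, 0.12 for Cox6a2 and 0.41 for Cox8b.

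**Figure D4:**
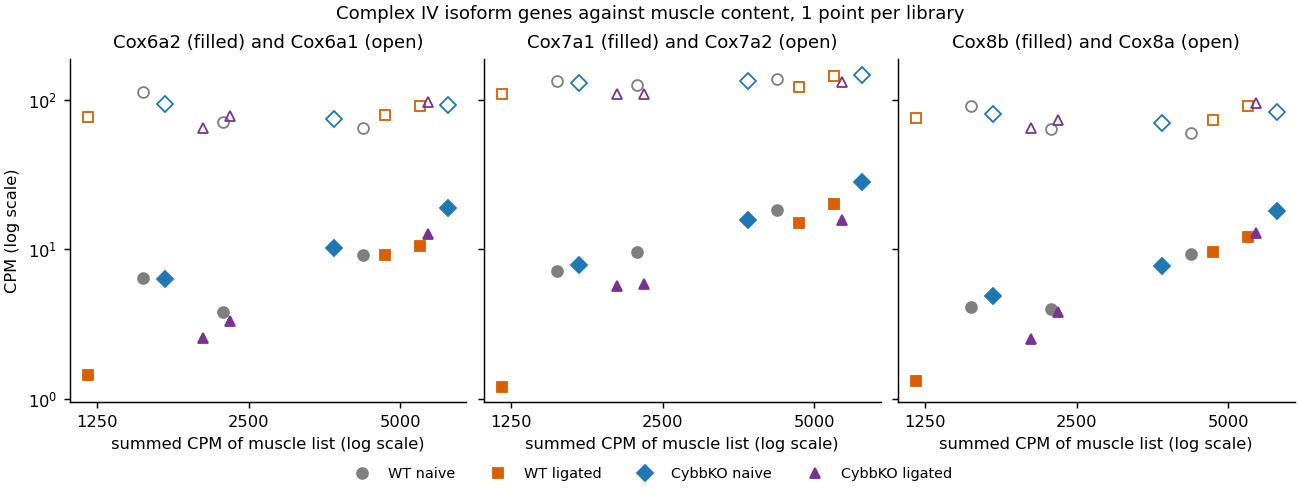
CPM of the muscle isoform (filled) and the widespread isoform (open) of Cox6a, Cox7a and Cox8 against the summed CPM of 31 muscle markers, both axes logarithmic, 1 point per library. The filled points rise with muscle content, from 1.20 to 28.1 CPM for Cox7a1. Relative to muscle content the ligated libraries lie below the naive ones for Cox7a1 but overlap them for Cox6a2 and Cox8b. This ratio was added after seeing the data, and its divisor holds markers that rose with ligature. With muscle content as a covariate the ligature difference of Cox7a1 did not pass the test.

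Among the muscle markers, Ckm (muscle creatine kinase) ran from 22.2 to 301 CPM, Mb (myoglobin) from 35.9 to 341 and Myh4 (a fast myosin) from 11.4 to 424. Each was lowest in ligated WT replicate 2 and highest in naive CybbKO replicate 3, the same libraries as for Cox7a1. The markers did not all move alike. Each is part of the sum it is set against, so slopes above 0 are built in for the abundant ones and their calls are a description. Of the 31, 24 had a slope past the test, each above 0, and 6 had slopes below 0, none past it, from -0.61 for Tnnc1 to -0.07 for Tnnt1. Some of these 6 rose with ligature. Tnnt1, a slow troponin, did so in WT (3.09, edgeR adjusted p = 0.0019) and in CybbKO (3.20, adjusted p = 0.00067), Tnnc1 in WT (4.75, adjusted p = 0.0227) and Myh2, a fast myosin, in CybbKO (2.78, adjusted p = 0.0064). Outside the members, edgeR called a positive slope for 3 of 19 glycolysis rows, 1 of 13 carriers and subunits that the naming rule leaves out and 1 of 17 regulators, and for 0 of 18 tricarboxylic acid cycle, 0 of 44 assembly and 0 of 10 outer membrane and import genes (11, 1 and 2 of them at an unadjusted p under 0.05, against 30 of 80 members and 779 of all 15046 genes). Those called were the glycolytic Eno3 (1.05, edgeR adjusted p = 2.05e-05), Pfkm (0.73, adjusted p = 5.69e-05) and Pgam2 (1.06, adjusted p = 0.000137), the coenzyme Q binding protein gene Coq10a (0.49, adjusted p = 0.00203) and the coactivator Ppargc1a (0.80, adjusted p = 0.00753). Of 5 fat markers, all with slopes above 0 (median 0.37), Fabp4, a fatty acid binding protein gene, was called (0.55, adjusted p = 0.00594). The 5 summed to 25.1 to 89.02 CPM, and their part in the members' slopes was not tested.

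Base composition moved with the members as well. Of the 77 members tested other than the muscle isoforms, the 25 with the most GC-rich transcripts (at least 54.4% GC) were compared in each library with the 25 with the poorest (at most 49.0%), as the difference of their mean deviations in log2 CPM. It ran from -0.31 in naive CybbKO replicate 2 and naive WT replicate 1 to 0.43 in naive WT replicate 3. The difference of median deviations among other genes in those GC ranges ran from -0.35 to 0.51 over the same libraries. Ligated CybbKO replicate 2 stood apart here as well, at 0.28 for members against -0.13 and -0.25 in the other ligated CybbKO libraries. For other genes it was at 0.41 against -0.15 and -0.35. In ligated against naive CybbKO the median log2 fold change was -0.30 for GC-rich members and -0.17 for GC-poor ones, beside -0.15 and 0.02 for other genes in those ranges. In ligated against naive WT it was -0.19 and -0.02, beside -0.17 and 0.04. The part of GC content in the members' differences was not tested beyond the fit with a GC offset, where the members' median was -0.21 in CybbKO and -0.06 in WT.

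**Figure D5:**
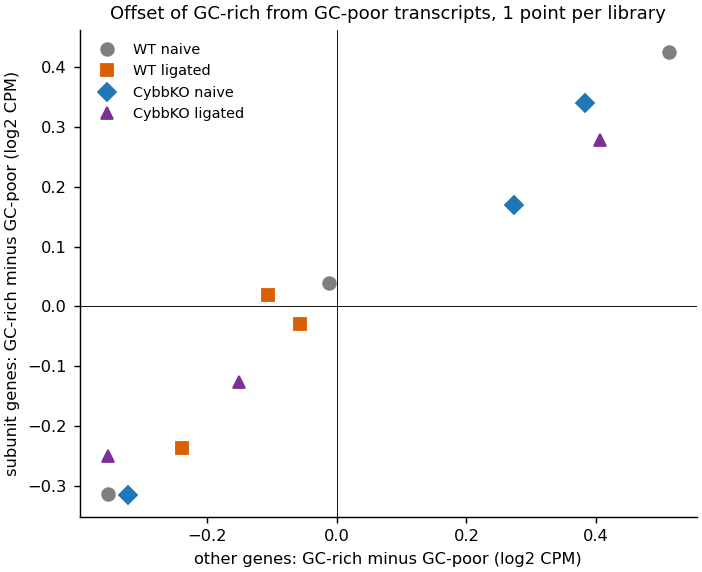
Difference in log2 CPM between GC-rich and GC-poor subunit genes (vertical axis, 25 members each) (means) against the difference among the other genes tested (medians, horizontal axis), 1 point per library and marked by group. Naive WT alone spans from -0.31 to 0.43 on the vertical axis, as wide as all 12 libraries together apart from less than 0.01.

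The subunits and carriers that the naming rule leaves out were measured in the same libraries. Cox4i1, the widespread form of a complex IV subunit, ran from 133.8 to 244 CPM, and its hypoxia-linked form Cox4i2 from 0.33 to 1.13. Cyc1 of complex III ran from 86.3 to 160 CPM, cytochrome c (Cycs) from 22.5 to 38.1 and the complex I acyl carrier Ndufab1 from 33.4 to 57.7. Of the 13 genes tested in this list, which also holds the member Ndufa4l2, edgeR called 0 in ligated against naive WT (2 at an unadjusted p under 0.05), and DESeq2 called Dhodh lower. In CybbKO 1 was lower, Dhodh, a pyrimidine synthesis enzyme that feeds electrons to ubiquinone (-0.71, edgeR adjusted p = 0.0165). Cyc1 was at -0.34, Cox4i1 at -0.35, Ndufab1 at -0.35 and Cycs at -0.29 in that comparison, none past the test.

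Assembly factors, which build the complexes without staying in them, gave 0 calls of 44 by edgeR in WT (6 at an unadjusted p under 0.05, 2 called lower by DESeq2) and 5 in CybbKO, all lower in ligated gingiva (10 by DESeq2). In CybbKO edgeR called 457 of all 15046 genes lower and DESeq2 5.06% of those it tested. By edgeR 15 of the 44 had an unadjusted p under 0.05, all lower, against 10.4% of all genes at such a p and lower. The median of this list was -0.23 against -0.03 for all genes. The 5 that edgeR called were Timmdc1 (-0.43, edgeR adjusted p = 0.0221), Acad9 (-0.48, adjusted p = 0.0426) and Ndufaf6 (-0.61, adjusted p = 0.0459) of complex I and Bcs1l (-0.44, adjusted p = 0.0321) and Uqcc1 (-0.52, adjusted p = 0.0395) of complex III. Timmdc1 was at 24.8, 28.4 and 28.2 CPM in naive and 20.2, 20.9 and 19.4 in ligated CybbKO libraries, and at 26.5, 27.3 and 25.2 in naive and 21.3, 21.9 and 22.6 in ligated WT. In both genotypes the ligated libraries lay below the naive ones, as they did for 11.6% of all genes in WT and 12.8% in CybbKO. Each of these 5 calls, and those of Dhodh and Twnk, was lost when any of at least 3 of the 12 libraries was left out, with adjusted p-values up to 0.171. Scaling by library size alone lost all 5 and that of Twnk, a fit of only the 6 libraries compared lost all 5, and with muscle content as a covariate Acad9 (adjusted p = 0.0583) and Ndufaf6 (adjusted p = 0.0619) were lost. With a replicate block Bcs1l (adjusted p = 0.0709), Ndufaf6 (adjusted p = 0.0693) and Uqcc1 (adjusted p = 0.0735) were lost.

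Among 17 regulators of mitochondrial genes, Twnk, the mitochondrial DNA helicase, was lower in ligated CybbKO (-0.50, edgeR adjusted p = 0.0326) and edgeR called 0 in WT (2 at an unadjusted p under 0.05), where DESeq2 called Twnk and Pprc1 lower. The coactivator Ppargc1a was at 4.87, 7.72 and 2.84 CPM in naive WT, 7.32, 3.40 and 10.5 in ligated WT, 2.92, 10.5 and 14.0 in naive CybbKO and 3.32, 4.47 and 2.76 in ligated CybbKO libraries. Its ligature difference in CybbKO was -1.38 (edgeR adjusted p = 0.13), which DESeq2 called. Nrf1 was at 0.00 and Tfam, the mitochondrial DNA packaging factor, at -0.07 there, and Esrra at -0.44, Esrrg at 0.06 and Ppargc1b at -0.20, none past the test. Of 18 tricarboxylic acid cycle genes edgeR called 0 in either genotype (0 in WT and 3 in CybbKO at an unadjusted p under 0.05), and DESeq2 called Idh3b lower in CybbKO. Their median log2 fold changes were -0.11 in WT and -0.25 in CybbKO. The cycle's first enzyme Cs was at -0.02 and -0.17. Of 10 outer membrane and import genes edgeR called 0 (1 in WT and 2 in CybbKO at an unadjusted p under 0.05). By DESeq2 the channel gene Vdac1 was lower in CybbKO. Of 19 glycolysis rows Pfkp, a phosphofructokinase, rose with ligature in WT (0.56, adjusted p = 0.0282) and in CybbKO (0.80, adjusted p = 0.0024). The WT call was lost when any of 5 libraries was left out (adjusted p up to 0.12) and in a fit of only the 6 libraries compared, and the CybbKO call was kept in each alternative run. In the genotype comparisons and the interaction, edgeR and DESeq2 called 0 genes of these 6 lists, and edgeR gave an unadjusted p under 0.05 to 1 glycolysis gene (ligated) and 1 regulator (interaction).

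The search for the 5 genes most like the members' mean log2 CPM over the 12 libraries left out the members and the muscle list. They were Chchd10 (Pearson r = 0.97), S100a1 (0.97), Fam184b (0.95), Pink1 (0.95) and Vegfb (0.95). The 12 points share depth, muscle content and base composition, and the values are a description.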

How the data were processed

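Poly(A) RNA of mouse gingiva was sequenced from stranded libraries (TruSeq Stranded mRNA). The authors deposited raw read counts per Ensembl gene, 21965 genes in 12 libraries. The methods of the study name STAR and featureCounts on GRCm38 and the labels name HTSeq 0.10.0 and FastQC 0.10.1 (submitters' processing notes), so which tool made these counts is not settled, nor how reads shared by near-identical genes were treated. Symbols came from GENCODE M21 on GRCm38 (26 identifiers unmatched).

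From the deposited counts, genes were filtered with filterByExpr, scaled by TMM and tested in one quasi-likelihood fit over the 4 groups (edgeR 4.0.16, R 4.3.3), with p-values adjusted by Benjamini-Hochberg over all 15046 genes tested and called under 0.05. An exact permutation test of 3 libraries against 3 cannot go below 0.1 (two-sided), so none was used. FPKM are CPM per kilobase of the principal transcript. Muscle content is the summed CPM of 31 marker genes. DESeq2 1.42.0, other scalings and filters, a replicate block, muscle content as a covariate and leaving out each library were alternatives, and GC offsets from 20 bins and the muscle slope were added after seeing the data. Members and gene lists were chosen with earlier results of these data known. Genes were named by rule: isoform families, core subunits, the 2 highest per complex, the 2 highest and lowest per comparison and any called. Genes outside it (such as Ndufa5, Ndufb4, Cox7c, the pathway genes called and Coq10a) were named after their values were seen. The fits were tested on simulated data. 1 result is not reported here.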

Additional observations from a re-analysis of the deposited data

How the results depend on the processing

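Members called in ligated against naive CybbKO went from 0 to 1 with DESeq2, to 1 with muscle content as a covariate, to 2 with the GC offset and to 1 with the GC offset and a replicate block, and to between 0 and 4 when each library was left out (4 without ligated CybbKO replicate 2). The slope on muscle content called 8 members with the GC offset and 0 without the striated muscle isoforms, which removes the 3 called, and 2 to 3 when each library was left out. The other counts of called members kept their side. The replicate block called 0 members in each of the 5 comparisons and 3 in the slope. Same-numbered libraries of different groups had correlated deviations over 0.1 in only 2 of 18 pairs (-0.228 to 0.277), so the numbers were not taken to pair the libraries. Members' medians when each library was left out ran from -0.18 to 0.05 (WT ligature), -0.31 to -0.13 (CybbKO ligature), -0.18 to 0.04 (genotype, ligated), 0.03 to 0.17 (genotype, naive) and -0.28 to -0.06 (interaction), so the sign of the WT ligature and ligated genotype medians depended on single libraries. The cause of each change was not tested. With 3 libraries per group the median SE of a member's log2 fold change in the WT ligature comparison was 0.16, which limits the differences that could be called.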
